A study of Mus musculus with 24 samples.

Results

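Mammary glands of irradiated BALB/c mice were compared with those of irradiated SPRET/EiJ mice 4 weeks after exposure. The comparison was chosen by strain, treatment and time as the labels give them, and it took 6 of the 24 arrays of the series, 3 from each strain. The study profiled long non-coding RNAs (lncRNAs) and coding RNAs of mammary gland after low-dose ionizing radiation (LDIR), a single whole-body X-ray dose of 10 cGy, or after sham treatment, in order to relate them to the strains' unequal susceptibility to radiation-induced breast cancer. Both irradiated groups were female mice exposed at 8-9 weeks of age, and no allele or agent beyond the strain and the dose is named in the labels. The sham arrays of the same time, 3 from each strain, hold the same strain contrast without LDIR and share no array with the comparison. Each array carried total RNA of whole gland in 1 colour. The labels do not say whether the 3 arrays of a group came from separate animals, so the p-values below measure the spread between these arrays.

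BALB/c is an inbred laboratory strain of the house mouse, and SPRET/EiJ was inbred from a wild species, Mus spretus, so the genomes differ at many more positions than those of common laboratory strains do. The mammary gland is a fat pad that holds a branching epithelium of luminal and basal cells, with fibroblasts, vessels, nerves and immune cells, and an array of whole gland measures all of these together. Fewer cells of a type and less RNA per cell cannot be told apart in such samples. BALB/c carries hypomorphic forms of Prkdc, which encodes the catalytic subunit of DNA-PK, and a variant of Cdkn2a, and both are known from work on tumour susceptibility in this strain.

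The level of a probe is given throughout as the log2 of its fluorescence intensity minus the 75th percentile of its array, so that a level of 0 equals that percentile. A difference is the mean level of the BALB/c arrays minus that of the SPRET/EiJ arrays, on the log2 scale. A probe was called where the unadjusted p of limma's test was under 0.001 and the change over 1.5-fold, and adjusted p-values are Benjamini-Hochberg values over all probes. "Well above background" is the scanner software's own mark for a spot on an array. Where a probe had that mark on no array of the lower strain, only a bound on the fold is given, from the mean of the higher strain over the lowest signal that did have it on each array of the lower strain.

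The array holds 55681 distinct probes, each of 60 bases, 16251 of them for lncRNAs and 39430 for coding RNAs. Many results below turn on single probes, so the sequences of a few are printed in full, in lower case, with their mm9 positions. The lncRNA annotated by the files as chr7:4827340-4863315_F is shown because 4 of its probes were called lower in BALB/c while a neighbouring probe on the same strand, the last of these lines, was not.
chr7:4843443-4843502, plus strand: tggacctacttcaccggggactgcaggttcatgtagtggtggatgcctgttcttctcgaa
chr7:4843638-4843697, plus strand: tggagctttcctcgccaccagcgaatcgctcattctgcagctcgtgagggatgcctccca
chr7:4847000-4847059, plus strand: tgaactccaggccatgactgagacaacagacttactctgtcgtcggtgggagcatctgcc
chr7:4847060-4847119, plus strand: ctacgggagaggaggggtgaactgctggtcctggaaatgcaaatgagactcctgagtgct
chr7:4847202-4847261, plus strand: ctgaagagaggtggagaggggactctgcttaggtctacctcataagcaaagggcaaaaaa

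The lncRNA chr15:85502461-85524051_R is shown because its 3 probes gave unlike results, and only the last of these lines was called.
chr15:85502462-85502521, minus strand: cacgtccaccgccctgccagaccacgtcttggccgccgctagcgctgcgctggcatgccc
chr15:85513666-85513725, minus strand: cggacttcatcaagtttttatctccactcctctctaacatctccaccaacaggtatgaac
chr15:85523967-85524026, minus strand: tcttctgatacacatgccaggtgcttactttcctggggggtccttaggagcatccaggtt

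The probe with the largest difference in favour of BALB/c among lncRNA probes well above background on all 6 arrays, the probe of the mitochondrial gene ND2, which was the only one called among the mitochondrial genes, and a probe of the nuclear lncRNA Neat1 complete the set.
chr4:141532840-141532899, plus strand: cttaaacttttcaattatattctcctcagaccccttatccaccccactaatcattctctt
ND2, chrM:4670-4729, plus strand: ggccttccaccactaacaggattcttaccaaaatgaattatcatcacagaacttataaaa
Neat1, chr19:5842564-5842623, minus strand: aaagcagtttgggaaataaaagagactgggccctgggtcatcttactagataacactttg
How many of a probe's bases match the SPRET/EiJ genome was not tested here.

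The share of probes well above background ran from 57.1% to 72.4% over the 6 arrays, the lowest being that of SPRET/EiJ LDIR replicate C, whose negative control spots also had the highest signal of the 6 (26.3 against 13.6 to 15.2). All 3 irradiated BALB/c arrays lay on slide 2 and all 3 irradiated SPRET/EiJ arrays on slide 3, so slide and strain cannot be told apart within the comparison. SPRET/EiJ LDIR replicate A stood apart from the other 5 arrays. Over 17 T lymphocyte markers it had a summed level of 321, against 20.1 to 25.3 on the others, and over 13 B lymphocyte markers 177, against 9.48 to 35.1. It held the highest of the 6 values for 17 of 17 T lymphocyte, 12 of 13 B lymphocyte, 11 of 12 MHC class II and 18 of 24 cell cycle genes, against 22.1% of all genes. The lowest value was its own for 17 of 18 white adipocyte, 19 of 20 fibroblast and collagen, 15 of 18 luminal epithelial and 64 of 80 respiratory chain genes, against 40.4% of all genes. Whether lymphoid tissue lay in that sample was not tested, and many of the results below are given with and without the array.

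**Figure D1:**
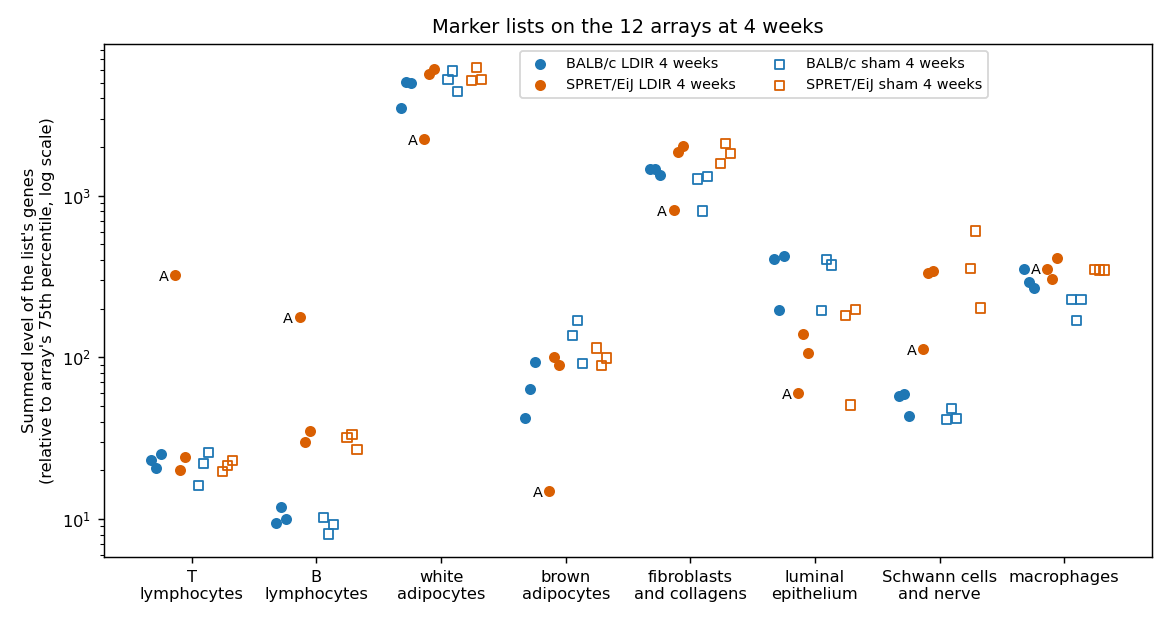
Summed level of the genes of 8 marker lists (log scale, relative to the 75th percentile of the array) on each of the 12 arrays at 4 weeks, with LDIR arrays as filled circles, sham arrays as open squares and the letter A beside SPRET/EiJ LDIR replicate A. That array lies above all others for T and B lymphocytes (321 and 177) and below the other LDIR arrays for white adipocytes (2240), brown adipocytes (14.8), fibroblasts (813) and luminal epithelium (60).

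The defining markers of mammary gland were present on every array. Krt18, a keratin of luminal cells, had levels of 7.56, 6.6 and 7.6 on the BALB/c arrays and 4.48, 5.85 and 5.39 on the SPRET/EiJ arrays. Krt5, a keratin of basal cells, had levels of 2.58, 1.69 and 1.91 against 1.06, 2.23 and 2.16. Adipoq, an adipocyte hormone, had levels of 7.26, 8.44 and 8.01 against 6.32, 7.79 and 7.87. Krt5 and Adipoq overlapped between the strains, and Krt18 did not, its difference of 2.01 ± 0.45 (SE, n = 3 per strain) having an adjusted p of 0.0351 in limma without being called. The muscle marker Ckm was well above background on 2 of the 3 BALB/c and 1 of the 3 SPRET/EiJ arrays. The epidermal keratin Krt1 had levels of -5.58, -7.55 and -6.68 against -5.42, -5.69 and -6.15 and was well above background on none of the 6 arrays.

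Of 16251 lncRNA probes, 820 were called (5.05%), 594 higher and 226 lower in BALB/c. Of the coding RNA probes, 2337 were called (5.93%), 1512 higher and 825 lower. An adjusted p under 0.05 in limma was reached by 6182 probes of both classes (11.1%), 3894 higher and 2288 lower, and the largest adjusted p among the called probes was 0.0176. By the fitted difference 2138 of the 3157 called probes differed over 4-fold, 1481 of them higher in BALB/c. That count includes probes well above background on no array of the lower strain, whose fold is only bounded and may be smaller. In the higher strain 3007 of the called probes were well above background throughout, 670 of them with no such array in SPRET/EiJ and 133 with no such array in BALB/c. With each gene given by its probe of highest mean over the 12 arrays at 4 weeks, 1049 of 27432 genes were higher (3.82%) and 565 lower (2.06%) in BALB/c, beside a median difference of -0.10 over all genes.

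The balance of the calls depended on single arrays. Over all probes 2106 calls were higher and 1051 lower in BALB/c, so that 66.7% were higher. Without SPRET/EiJ LDIR replicate A the calls numbered 4397, 2346 higher and 2051 lower (53.4% higher), and 2570 of the 3157 calls were found again, each in its own direction. By gene, 1178 were higher (4.29%) and 1126 lower (4.1%) without that array. Without SPRET/EiJ LDIR replicate C, 1749 were higher and 639 lower (73.2% higher), and without any 1 of the other 4 arrays the calls numbered 1605 to 2014. With the median of each array in place of its 75th percentile, 1632 were higher and 1390 lower (54.0% higher), the median difference of all probes moving from -0.06 to -0.25.

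**Figure D2:**
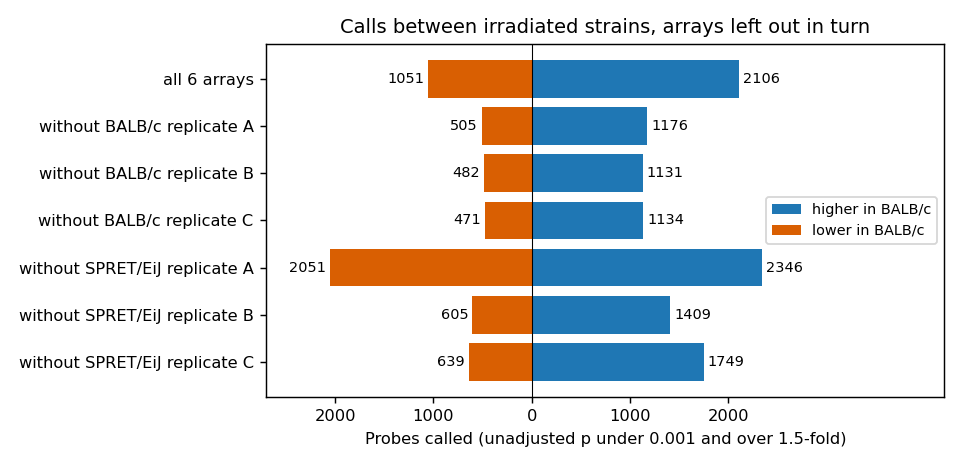
Number of probes called higher (right) and lower (left) in irradiated BALB/c with all 6 arrays and with each array left out in turn. Leaving out SPRET/EiJ LDIR replicate A gave the most calls, 2346 higher and 2051 lower, and leaving out any BALB/c array gave 1605 to 1681 in all.

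The strain contrast of the sham arrays, measured on 6 arrays that the irradiated comparison did not use, gave 4950 called probes (8.89%). Of the 3157 probes called after LDIR, 2262 were also called there in the same direction, which is 71.7% of the LDIR calls and 45.7% of the sham calls, and 0 in the opposite one. The sign of the difference was shared by 3138 of the 3157. These arrays do not remove the slide, since the sham SPRET/EiJ arrays also lay on slide 3. Slide 3 also held 2 BALB/c arrays, from 8 weeks after LDIR, and against those 648 probes were higher and 732 lower in BALB/c (47.0% higher) with 3071 of the 3157 called probes keeping their sign. In a fit of all 24 arrays with slide as a block 1718 probes were called, 1090 higher and 628 lower, and 3143 of the 3157 kept their sign. Only the BALB/c LDIR group of 8 weeks lay on both slides 2 and 3, with replicate A on slide 2 and B and C on slide 3. The slide block therefore leans on the same 2 BALB/c arrays of slide 3 and is not a separate check. The values within slide 3 differ from the main ones in time after exposure as well as in slide.

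**Figure D3:**
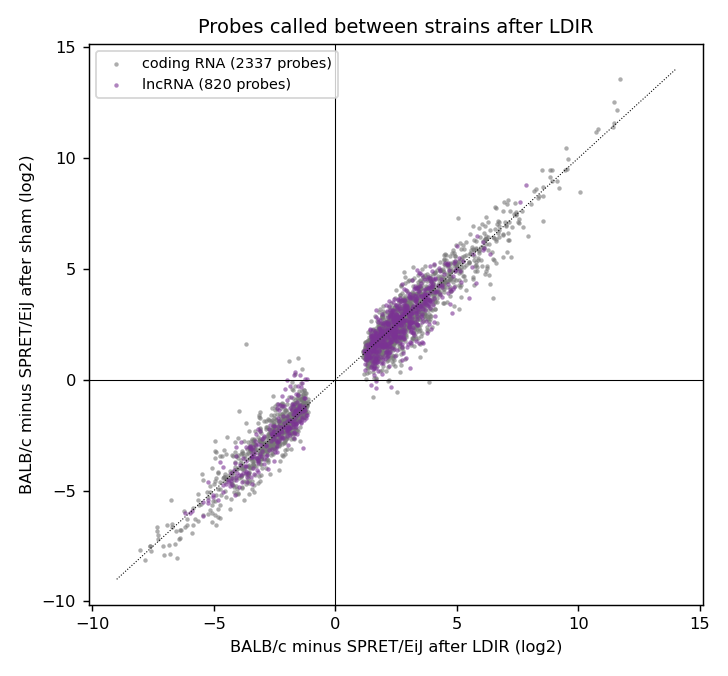
Difference between strains after LDIR (x axis, BALB/c minus SPRET/EiJ, log2) and after sham treatment (y axis, same unit) for the 3157 probes called after LDIR, with lncRNA and coding RNA probes in separate colours and the dotted line marking equal differences. Of these probes 3138 have the same sign on both axes and 2262 were called on both.

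The largest differences in favour of BALB/c belonged to a few coding RNAs. Me1 encodes malic enzyme, which supplies NADPH for fatty acid synthesis. Its probe at chr9:86475077 had levels of 7.72, 6.98 and 7.11 on the BALB/c arrays and -5.16, -3.97 and -4.22 on the SPRET/EiJ arrays, a difference of 11.72 ± 0.38 (SE, adjusted p = 0.000111, limma). The probe starting at 86475215 differed by 11.48 (adjusted p = 0.000109). The third Me1 probe, at 86480571, had levels of 5.94, 5.2 and 5.28 against 5, 6.86 and 7.04, which overlapped, and a difference of -0.83 (adjusted p = 0.435). The probes of the same gene thus ranged from no called difference to the largest one measured, and Me1 is uncertain. Trub2, a pseudouridine synthase gene, gave the same picture: 1 probe differed by 9.14 ± 0.36 (adjusted p = 0.000132) and the other 2 by 0.11 and -0.80 (adjusted p = 0.862 and 0.191).

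ND2, a complex I subunit encoded by the mitochondrial genome, had levels of 7.23, 7.68 and 7.68 in BALB/c and -2.64, -1.64 and -1.88 in SPRET/EiJ at the probe printed above, a difference of 9.58 ± 0.33 (SE, adjusted p = 0.000115, limma). None of the 11 probes of the other mitochondrial genes was called, their differences running from -0.96 for ND6 to 1.27 for ND4L, and their levels on the sham arrays differed by -1.06 to 1.32. ND2 alone therefore set the mitochondrial genome's count of 1 called probe of 12.

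The major urinary proteins (Mup genes), a cluster of near-identical lipocalin genes whose products carry pheromones, were singled out after their values were seen. Of 14 Mup probes, carrying 11 gene names between positions 59969824 and 61808925 of chromosome 4, 13 were called and all 13 were higher in BALB/c. Over all coding RNA probes 5.93% were called. At the 11 probes that were well above background on at least 1 SPRET/EiJ array the differences ran from 5.62 to 8.91. At Mup19 the BALB/c levels were 8.97, 9.03 and 9.44 and the SPRET/EiJ levels 0.7, 1.98 and 1.66. At the other 3 probes, of Mup-ps21, Mup6 and Mup4, which were well above background on no SPRET/EiJ array, the level in BALB/c was at least 1290-fold, 941-fold and 4.73-fold higher. The strains overlapped at none of the 14 probes, and over all genes they did not overlap at 9686 of 27432. The probe that was not called belonged to Mup9, with SPRET/EiJ levels of -7.78, -1.35 and -6.32. Because the paralogs share most of their sequence, a probe may read several of them, and the 14 probes are not independent. Probes of the transcripts ENSMUST00000098035 (9.54) and TC1781567 (9.45), which the files describe as a predicted gene and as similar to MUP4, lie in the same interval of chromosome 4 and were also called.

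**Figure D4:**
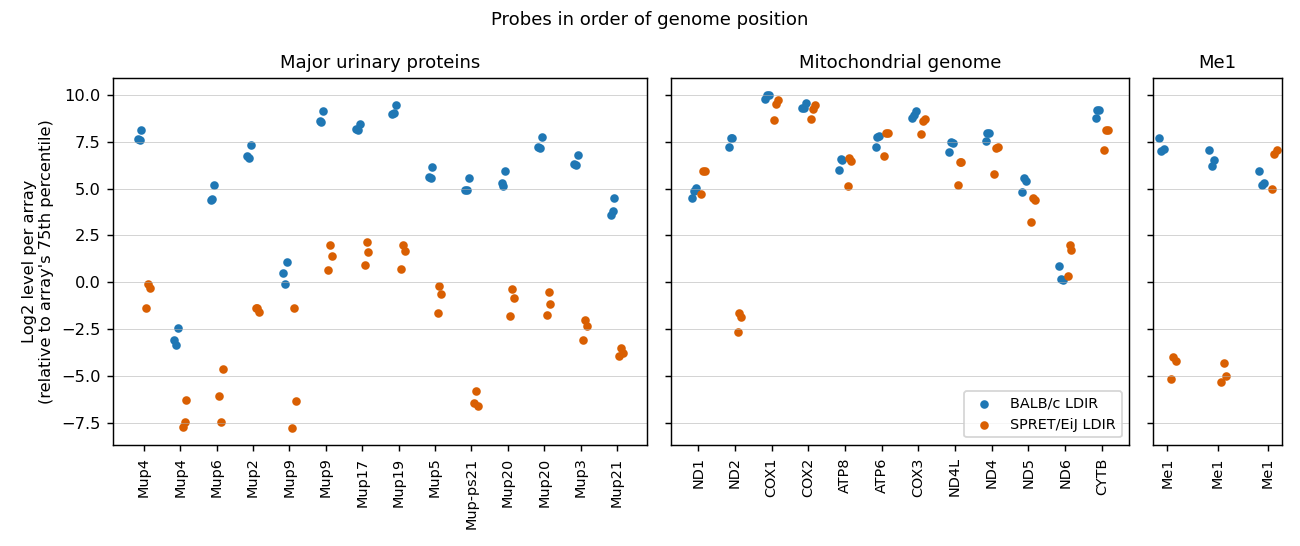
Log2 level on each irradiated array (y axis, relative to the 75th percentile of the array) of the 14 Mup probes, the 12 probes of mitochondrial genes and the 3 Me1 probes, in order of genome position within each panel, with BALB/c in blue and SPRET/EiJ in orange. All 14 Mup probes lie higher in BALB/c, ND2 is the only mitochondrial probe that separates the strains by several log2 units (9.58), and the third Me1 probe overlaps.

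Among coding RNAs lower in BALB/c, the probe of ENSMUST00000103740, described in the files as the T cell receptor alpha constant region, had levels of -4.48, -4.44 and -4.72 in BALB/c and 3.31, 3.03 and 2.94 in SPRET/EiJ. The difference of -7.64 ± 0.22 (SE, adjusted p = 0.000109, limma) stood beside one of -7.48 in the sham arrays. The SPRET/EiJ values did not follow the T lymphocyte sum, which was 321 on replicate A and 20.1 and 24.2 on the other 2, and the difference was -3.48 within slide 3 and -4.59 with slide as a block. A probe named NAP094932-001 on chromosome 4 had the same difference of -7.64. Cartpt, which encodes a neuropeptide precursor, had levels of -4.76, -4.6 and -4.2 against 2, 3.47 and 3.03, a difference of -7.35 ± 0.41 (adjusted p = 0.000357).

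Mpo, the myeloperoxidase of neutrophil granules, was lower in BALB/c at both of its probes. The probe at chr11:87617840 had levels of -3.36, -4.06 and -3.38 against 2.51, 4.12 and 4.56, a difference of -7.33 ± 0.55 (SE, adjusted p = 0.000885, limma), and at the other, well above background on no BALB/c array, the level was at least 10.6-fold lower in BALB/c. Thumpd1, which encodes an RNA-binding adaptor for tRNA acetylation, had a probe at chr7:126858835 with levels of -4.82, -4.77 and -4.21 against 2.37, 2.26 and 2.16, a difference of -6.86. The probe starting at 126858660 of the same gene differed by -0.17 (adjusted p = 0.639). Thumpd1 therefore differed at only 1 of its 2 probes.

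Such disagreement was common. Among 5322 coding genes with 2 or more measured probes, each well above background throughout in at least 1 of the strains, 746 had a call, 77 had all of these probes called the same way and 12 had calls in opposite directions. In the genes with a call, the 1009 other probes had the sign of the leading probe in 64.0% and were called the same way in 11.6%, with a median difference of 0.30 in the direction of the leading probe, whose own median was 2.40. Among 2448 lncRNAs with 2 or more such probes, 454 had a call, 56 were called throughout in the same direction and 7 in opposite directions. Their 1223 other probes shared the sign in 72.7% and the call in 17.9%, with medians of 0.53 against 2.55. The leading probe was the one with the largest difference, so its median describes that choice.

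Genes with 3 measured probes all called the same way were singled out after their values were seen. Lgals4, which encodes the epithelial lectin galectin-4, was higher in BALB/c by 2.22 to 2.68. The probes of A130040M12Rik were also higher at all 3, by 6.20 to 9.48. At 1810058I24Rik all 3 were higher too, by 3.76 at the probe measured on 1 SPRET/EiJ array and at least 16.5-fold and 1.92-fold at the other 2. Cwc22, a splicing factor gene, was lower at all 3, by -3.70 to -3.17, with BALB/c levels of 0.11, 0.4 and 0.32 against 3.75, 4.34 and 3.83 at the probe of largest difference.

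Among lncRNA probes well above background on all 6 arrays, the largest difference was that of the probe in chr4:141527564-141547339_F, whose sequence is printed above. Its levels were 4.93, 5.76 and 5.57 in BALB/c and -2.37, -2.05 and -2.13 in SPRET/EiJ, a difference of 7.61 (adjusted p = 0.00013, limma), and it was the only probe of that lncRNA. At chr15:85502461-85524051_R the third printed probe had levels of 0.68, 1.61 and 1.4 against -4.25, -3.03 and -3.84, a difference of 4.93, while the other 2 differed by 0.34 and -0.03 (adjusted p = 0.531 and 0.948). At chrX:98658045-98677545_F the called probes differed by 4.70 and 3.08, and a probe starting 57 bases before the former by -0.29. At chr9:56910620-56919495_F 1 of 5 probes was called, with a difference of 4.62, and the other 4 ran from 0.27 to 1.18.

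Other lncRNAs had large negative differences. All 5 probes of chr14:26834450-26847000_F were called lower in BALB/c, with differences of -5.05 to -2.20. At the probe of largest difference the levels were -2.32, -1.92 and -2.46 against 2.55, 2.97 and 2.92 (adjusted p = 0.000257, limma). At chr7:4827340-4863315_F the 4 called probes printed above differed by -4.39, -5.26, -5.24 and -6.17 in genome order, and the last printed one, with levels of 3.18, 3.53 and 3.24 against 4.24, 5.65 and 5.74, by -1.90 (adjusted p = 0.0378). The other 5 probes of that lncRNA, from position 4858124 on, were not called. Isoc2a, a coding gene whose probe lay 436 bases from the nearest of the 4, was also lower in BALB/c, by -4.54 (adjusted p = 0.00375), with levels of -2.53, -1.71 and -2.16 against 1.25, 2.95 and 3.03. At chr4:126710640-126721240_R 5 of 10 probes were called. The differences at 3 of them were -5.98, -5.45 and -5.24, and at the other 2, well above background on no BALB/c array, the level was at least 15.9-fold and 13.5-fold lower in BALB/c. The other 5 probes were not called.

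Calls in opposite directions within an lncRNA were most numerous at chr2:31001736-31006911_R and chr8:72663625-72673010_F, each with 2 probes higher and 4 lower of 8 measured. In the latter the probes lay in order: 4 probes from 72665765 to 72671066 were lower in BALB/c by -1.95 to -1.43, and the last 2, from 72672276 on, were higher by 2.01 and 4.13. The nearest coding probe, of 2310045N01Rik, was lower by -2.12 (adjusted p = 0.00339, limma). At chr16:59557120-59602070_R 2 probes were higher and 1 lower of 9 measured, and at chr17:3198868-3394643_F and chr7:118248833-118267766_R 1 was higher and 1 lower, the higher one with a difference of -0.27 and -0.78 within slide 3. The direction of these lncRNAs between the strains is uncertain.

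Of 26 well-known lncRNAs on the array, 4 were called (15.4%, against 5.88% of all genes), all higher in BALB/c, with a median difference of 0.48 against -0.10 over all genes. Neat1, the scaffold of nuclear paraspeckles, had levels of 6.02, 6.26 and 6.3 in BALB/c and 4.07, 4.39 and 4.51 in SPRET/EiJ, a difference of 1.87 ± 0.23 (SE, adjusted p = 0.00487, limma). The array holds 5 further probes labelled NEAT1 that overlap it or lie beside it, and all 5 were called, at 1.65 to 2.27. Gas5, a host of small nucleolar RNAs, had 1 called probe at 1.95 (adjusted p = 0.0125), not called without SPRET/EiJ LDIR replicate C (1.73), and 2 others at 0.49 and 1.04 (adjusted p = 0.527 and 0.173). Snhg3, another such host, differed by 1.80 and 1810019D21Rik by 2.99. The gene labelled Xist, which silences an X chromosome in female cells, differed by 1.15 (adjusted p = 0.0244) without being called, whereas all 5 probes labelled XIST were called, at 1.22 to 1.86. Within slide 3 the XIST probes differed by -0.05 to 0.57 and the NEAT1 probes by 0.95 to 1.56. Malat1 (0.42, adjusted p = 0.318), Meg3 (0.99, adjusted p = 0.254) and H19 (-1.37, adjusted p = 0.169) were not called.

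Called probes lay on every chromosome, from 4.31% of the probes on chromosome 15 to 6.61% on chromosome 4 among the autosomes. Of 814 called lncRNA probes with a position, 374 had a measured coding probe within 10 kb. That neighbour was called for 28.3% of them, 92 of 106 in the same direction, and shared the sign for 66.8%. Around lncRNA probes that were measured and not called the neighbour was called for 9.84% and shared the sign for 54.8%. These shares are descriptions, since neighbouring probes can read the same transcript.

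Chemokines draw leukocytes into tissue. Of 20 CC chemokine ligands, 4 were higher in BALB/c and 0 lower (20.0%, against 5.88% of all genes called), with a median difference of -0.24. Ccl6, a chemokine of myeloid cells, had levels of 5.2, 4.48 and 4.99 in BALB/c and -1.24, 0.14 and -0.33 in SPRET/EiJ, a difference of 5.37 ± 0.40 (SE, adjusted p = 0.000903, limma). Ccl28, a mucosal chemokine made by epithelium, was well above background on no array of SPRET/EiJ, and its level in BALB/c was at least 10.6-fold higher. Ccl24, an attractant of eosinophils, had levels of 2.61, 2.74 and 2.18 against -2.05, -0.37 and -0.28, a difference of 3.41 ± 0.50 (adjusted p = 0.00888). Ccl25, an attractant of thymocytes and gut lymphocytes, differed by 2.42 at 1 of 4 probes, the other 3 lying between -0.25 and 0.40. Cxcl10, an interferon-induced attractant of T cells, had levels of -2.32, -1.45 and -1.43 against 0.44, -2.75 and -2.04, which overlapped, and its difference was -0.28 ± 0.81 (adjusted p = 0.851). Without SPRET/EiJ LDIR replicate A that difference was 0.66. The other Cxcl10 probe was well above background on no LDIR array of either strain and was not called (adjusted p = 0.122, limma). On the sham arrays it was called, its level in BALB/c being at least 1.4-fold higher.

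Among 17 CXC and other ligands only Ppbp, a platelet chemokine, was called, at -3.19 ± 0.47 (SE, adjusted p = 0.00891, limma), and it was not called without replicate A or without replicate C. No chemokine receptor of 23 was called. Of 73 interleukins and receptors 2.74% were called, against 5.88% of all genes. Il17rd was higher (2.25) and Il4ra, the receptor chain shared by IL-4 and IL-13, lower (-3.04). Il4ra was not called without replicate A (-2.72), and its other probe differed by -0.33 (adjusted p = 0.567). Of 40 members of the TNF and TNF receptor superfamilies 5% were called, against the same 5.88%. Tnfrsf23 was higher (2.93) and Tnfrsf1b, which encodes TNF receptor 2, lower (-1.99) in BALB/c. Neither was called without replicate C (2.74 and -2.07), and the other Tnfrsf23 probe differed by 0.51 (adjusted p = 0.615). The medians of these lists lay between -0.43 and -0.22 and between -0.05 and 0.24 without replicate A.

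The type I interferon-stimulated genes are induced in cells that sense interferon. Of 25, 2 were higher and 0 lower (8.0%, against 5.88% of all genes called), and 20 differences were positive, with a median of 0.80. Over all genes 12126 of 27432 differences were positive. Ifi44 had levels of 1.46, 0.68 and 1.31 in BALB/c and -3.19, -7.13 and -6.47 in SPRET/EiJ, a difference of 6.74 ± 0.98 (SE, adjusted p = 0.00835, limma), well above background on 1 of the 3 SPRET/EiJ arrays. Oasl2, of the oligoadenylate synthetase family, had levels of 3.22, 2.59 and 2.71 against 1.16, 1.22 and 1.17, without overlap, and a difference of 1.66 ± 0.25 (adjusted p = 0.00924). On the sham arrays Oasl2 differed by 0.04, and the difference between these strain differences was 1.62 ± 0.36 with an adjusted p of 0.955. Most BALB/c sham arrays were also on another slide than the irradiated ones, and the part of slide in that value was not tested. Within slide 3 Oasl2 differed by 0.37 and with slide as a block by 0.9, without a call in either.

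The number of these genes called depended on single arrays. Replicate A held the highest of the 6 values for 10 of the 25. Without it 9 were higher and 1 lower, against 4.29% and 4.1% of all genes, and the median was 1.41. Those called in that setting and not with all arrays included Rsad2 (2.99), Xaf1 (2.10), Mx2 (1.90), Rtp4 (1.71), Usp18 (1.45) and Stat2 (1.24), with Oas1b the lower one (-1.26). Usp18, a brake on interferon signalling, had levels of 1.81, 1.5 and 1.88 in BALB/c and 3.06, 0.25 and 0.3 in SPRET/EiJ, so that BALB/c lay between replicate A and the other 2. Without replicate C, 0 of the 25 were called by limma, and of all 27432 genes 817 were higher and 331 lower. The median difference of the list was 0.31 in the sham arrays, 0.10 within slide 3 and 0.52 with slide as a block. Among 18 GTPases and related genes induced by interferon gamma, Gbp1 was higher (4.46 ± 0.35, adjusted p = 0.000944) at both of its probes, and without replicate A Tgtp2 (2.06), Tgtp1 (1.89), Irgm1 (1.47), Gbp4 (1.47) and Irgm2 (1.23) were called too, the median moving from 0.65 to 0.93.

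**Figure D5:**
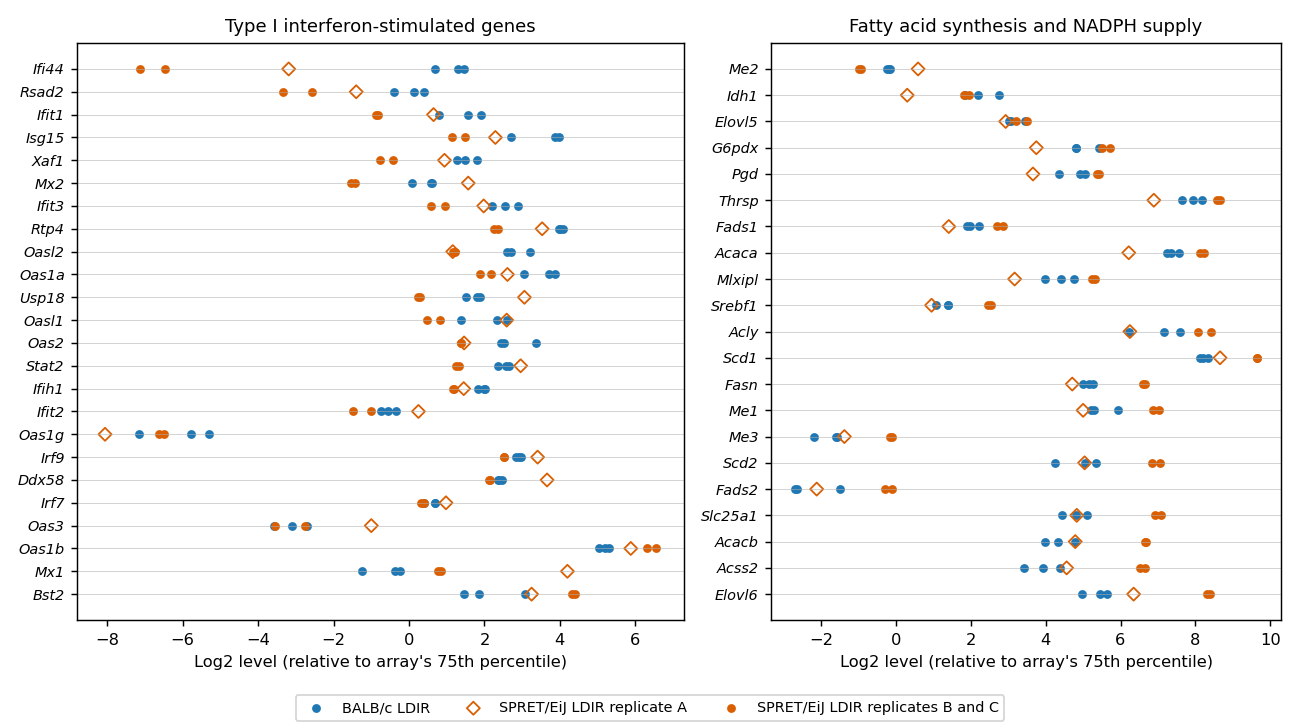
Log2 level on each irradiated array (x axis, relative to the 75th percentile of the array) of 24 type I interferon-stimulated genes and 21 genes of fatty acid synthesis and NADPH supply, with BALB/c in blue, SPRET/EiJ replicates B and C in orange and SPRET/EiJ replicate A as an open diamond. For many interferon-stimulated genes the diamond lies at or above the BALB/c points while B and C lie below them, and for most lipogenic genes B and C lie above BALB/c while the diamond does not.

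Enzymes of fatty acid synthesis make the lipid stored by adipocytes of the gland. Of 21 genes 0 were called by limma with all arrays, against 5.88% of all genes, and 1 had an adjusted p under 0.05. Of the differences 3 were positive, and the median was -0.71. Each gene is counted by its probe of highest mean. For Me1 that is the probe at 86480571, which was not called (-0.83), while its other 2 probes were called at 11.72 and 11.48. Elovl6, a fatty acid elongase, had levels of 5.64, 4.97 and 5.45 in BALB/c and 6.35, 8.32 and 8.4 in SPRET/EiJ, a difference of -2.34 ± 0.57 (SE, adjusted p = 0.0478). Without replicate A 6 were lower in BALB/c, against 4.1% of all genes: Elovl6 (-3), Acss2 (-2.67), Acacb (-2.30), Slc25a1 (-2.21), Fasn (-1.48) and Scd1 (-1.43). The median was then -1.26, against -0.91 in the sham arrays, where 3 were called lower, and -1.68 within slide 3. Without replicate C 0 were called and the median was -0.43, while of all 27432 genes 817 were higher and 331 lower. Fasn, the fatty acid synthase, had levels of 5.17, 4.99 and 5.27 against 4.71, 6.59 and 6.66, where only replicate A of SPRET/EiJ lay below BALB/c. Summed white adipocyte markers were 2240 on replicate A and 5630 and 6090 on the other 2 SPRET/EiJ arrays, and their part in these values was not tested.

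Markers of adipocytes had no common direction. Plin1, the coat protein of lipid droplets, was higher in BALB/c (5.31, 6.16 and 5.9 against 0.75, 2.27 and 2.14), a difference of 4.07 ± 0.47 (SE, adjusted p = 0.00366, limma), and was the only 1 of 18 white adipocyte genes called, the list having a median of 0.17. Of 12 brown adipocyte genes 16.7% were called, against 5.88% of all genes. Cox8b, a muscle and brown fat subunit of cytochrome c oxidase, was higher (4.86, 5.34 and 5.98 against -1.26, 0.83 and 0.14), by 5.49 ± 0.57 (adjusted p = 0.00257). Elovl3, an elongase of brown fat, was lower (-4.65, -5.25 and -4.83 against -2.08, 0.91 and 1.31), by -4.96 ± 0.86 (adjusted p = 0.0155), and was not called without replicate C (-4.33). Cox8b was also the only 1 of 80 respiratory chain genes called, beside a median of -0.18. Without replicate A 1 white adipocyte gene was higher and 2 were lower with a median of -0.29, 1 brown adipocyte gene was higher and 3 were lower with a median of -0.80, and the respiratory chain median was -0.53. Over all genes 4.29% were higher and 4.1% lower in that setting.

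Luminal epithelial genes had a median difference of 1.43 and 16 of 18 were positive, with 1 called and 5 at an adjusted p under 0.05 in limma. Over all 27432 genes 12126 were positive, 5.88% were called and 3121 had such an adjusted p. The called gene was Elf5, a transcription factor of the alveolar lineage, with levels of 2.51, 1.95 and 2.48 against -0.02, 0.68 and 0.79, a difference of 1.83 ± 0.31 (SE, adjusted p = 0.0145), and it was not called without replicate A or without replicate C. Summed luminal levels were 404, 197 and 424 in BALB/c and 60, 139 and 106 in SPRET/EiJ, which did not overlap. On the sham arrays the sums overlapped, at 194, 405 and 372 against 181, 50.7 and 198. The median difference of the luminal list was 1.17 without replicate A, 1.45 in the sham arrays and 1.67 within slide 3. The basal and myoepithelial list had a median of 0.05, and its only called gene was Acta2, smooth muscle actin (4.52, 4.09 and 3.74 against 0, 0.9 and 0.4), higher by 3.68 ± 0.33. Of 10 milk protein and secretion genes and of 11 EGF ligands and ERBB receptors 0 were called by limma, with 0 and 1 at an adjusted p under 0.05. Of 12 hormone receptors and their targets Calca, the calcitonin gene, was called, at least 3.39-fold higher in BALB/c, and it was not called without replicate A.

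Nerve and muscle genes gave a few large differences. S100b, a calcium-binding protein of Schwann cells and some adipocytes, had levels of 0.71, 1.31 and 0.93 in BALB/c and 6.18, 8.16 and 8.18 in SPRET/EiJ, a difference of -6.52 ± 0.56 (SE, adjusted p = 0.00141, limma), and -8.02 in the sham arrays. Mbp, a myelin protein, was lower too, by -1.28 ± 0.21 (adjusted p = 0.0123) at 1 probe, the other 2 differing by -1.17 and 0.61 (adjusted p = 0.0214 and 0.62) without a call. The Schwann cell list of 14, of which 14.3% were called, nevertheless had a median of 0.76 with 9 positive differences, both called genes lying against it. That median was 0.32 without SPRET/EiJ LDIR replicate A and -0.18 in the sham arrays. Mb, the myoglobin gene, was higher by 2.99 (adjusted p = 0.00123) as the only 1 of 17 skeletal muscle genes called (5.88%, against 5.88% of all genes). Of the 20 fibroblast and collagen genes, 12 endothelial genes and 8 erythrocyte genes 0 were called or passed an adjusted p of 0.05 in limma, and of 12 epidermal genes 0 were called and 1 passed it. Over all 27432 genes 5.88% were called and 3121 passed that adjusted p.

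Of 13 B lymphocyte markers 2 were called, of 17 T lymphocyte markers 0, of 19 macrophage markers 1 and of 11 mast cell markers 3 (15.4%, 0%, 5.26% and 27.3%, against 5.88% of all genes). Cr2, the complement receptor of B cells and follicular dendritic cells, was lower in BALB/c at both probes, with levels of -1.56, -1.53 and -1.32 against 4.8, 3.71 and 3.93 at the brighter, a difference of -5.62 ± 0.33 (SE, adjusted p = 0.000411, limma), -5.29 without replicate A and -3.14 within slide 3. Cd79a, a part of the B cell receptor, was lower by -1.74 ± 0.28 (adjusted p = 0.0122) at 1 probe, and the other differed by -0.84 (adjusted p = 0.597). The former differed by -0.27 within slide 3 and by -0.52 with slide as a block, and it was not called without replicate C (-1.77). All 13 B lymphocyte and all 17 T lymphocyte differences were negative, with medians of -1.59 and -1.82. Without replicate A 6 of the 13 and 9 of the 17 were positive, and the medians were -0.20 and 0.03. Msr1, a macrophage scavenger receptor, was lower by -2.74 and was not called without replicate A or without replicate C. The mast cell genes Hdc (2.21), which makes histamine, and Tpsb2 (1.91), a tryptase, were higher. Ms4a2 was called lower while well above background on none of the 6 arrays. The mast cell list had a median of 0.60 after LDIR and -0.08 in the sham arrays. Hc, complement component C5, was higher in BALB/c by 5.02 ± 0.46 (adjusted p = 0.00175), as the only 1 of 19 complement and acute phase genes called.

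MHC class I genes and ligands of their receptors, which differ between strains by haplotype, had calls in both directions. Of 47, 10.6% were called, against 5.88% of all genes. H2-T9 was higher (1.83) and H2-T3, H2-Q1, Raet1e and Raet1a lower, the last well above background on none of the 6 arrays. H2-T3 and Raet1e, well above background on no BALB/c array, were at least 3.97-fold and 5.43-fold lower in BALB/c. For Raet1e the difference was -0.55 within slide 3 and 0.13 with slide as a block. Members of this family are near-identical, and a probe may read several of them. Without replicate A 6 were higher and 5 lower, against 4.29% and 4.1% of all genes, and without replicate C 0 and 2, against 817 and 331 of all 27432 genes. No MHC class II gene of 12 was called with all arrays, and 3 were higher and 1 lower without replicate A, the median moving from -0.42 to 0.37.

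Enzymes of xenobiotic metabolism were called in both directions. Of 88 cytochromes P450, 6 were higher and 4 lower (11.4%, against 5.88% of all genes called), with a median of 0.03. Cyp3a57, Cyp3a25 and Cyp3a59, close paralogs on chromosome 5, were well above background on no array of SPRET/EiJ, and their levels in BALB/c were at least 77.1-fold, 65.5-fold and 32.8-fold higher. Cyp2e1, which oxidises ethanol and fatty acids, had levels of 7.51, 8.2 and 8.11 against 4.37, 5.42 and 5.49, a difference of 2.85 ± 0.38 (SE, adjusted p = 0.00642, limma). Cyp1a1, the target of the aryl hydrocarbon receptor, was lower (-4.51, -3.84 and -3.32 against -1.77, -0.55 and -0.11), by -3.08 ± 0.51 (adjusted p = 0.0128). Cyp1a1 was not called without replicate C (-2.73), on the sham arrays (-3.58), within slide 3 (-4.58) or with slide as a block (-3.55). Of 23 glutathione S-transferases Gstt2 (2.93) and Gstt4 were higher and Mgst2 (-2.51) and Gsta2 lower (17.4%). Gstt4 was not called without replicate A, nor were Mgst2 and Gsta2 without replicate C. Gclc, the rate-limiting enzyme of glutathione synthesis, was higher (2.81, 2.5 and 2.04 against -0.1, 0.1 and -0.27), by 2.54 ± 0.27 (adjusted p = 0.00299), as the only 1 of 23 antioxidant genes called. Without replicate A 6 cytochromes P450 were higher and 8 lower, 1 glutathione S-transferase was higher and 4 were lower, and 1 antioxidant gene was higher and 3 were lower. Over all genes 4.29% were then higher and 4.1% lower, against 3.82% and 2.06% with all arrays. Without replicate C 7 cytochromes P450 were higher and 1 lower, and of all 27432 genes 817 were higher and 331 lower.

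DNA breaks are repaired by end joining or by homologous recombination. None of 10 end joining genes was called by limma, with 0 at an adjusted p under 0.05 and a median of -0.11. Prkdc had levels of -0.77, -0.52 and -0.81 in BALB/c and 0.11, -0.68 and -0.81 in SPRET/EiJ, which overlapped, and a difference of -0.24 ± 0.31 (SE, adjusted p = 0.652), and 0.04 without replicate A. Of 27 genes of break sensing and homologous recombination 2 were called (7.41%, against 5.88% of all genes). Rad52, which anneals DNA single strands, was higher in BALB/c (-0.92, -0.65 and -0.93 against -4.47, -5.44 and -5.49), by 4.30 ± 0.33 (adjusted p = 0.00093), measured on 1 of the 3 SPRET/EiJ arrays. Rad50, a part of the MRN complex that binds broken ends, was higher by 1.96 (adjusted p = 0.0137) at 1 probe, not called without replicate C (1.86), and differed by -0.26 (adjusted p = 0.579) at the other. Atm, the kinase that signals breaks, differed by 0.65 ± 0.42 (adjusted p = 0.401).

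Of 24 p53 target genes 1 was higher and 1 lower (8.33%, against 5.88% of all genes called), beside a median of -0.06. Cdkn1a, which encodes the cell cycle inhibitor p21, had levels of -1.83, -1.52 and -1.5 in BALB/c and 0.33, 1.02 and 0.69 in SPRET/EiJ, a difference of -2.30 ± 0.26 (SE, adjusted p = 0.00364, limma). The sham arrays differed by -2.83 at that probe, which was not called there, and the other 2 Cdkn1a probes by 0.67 and -1.43 after LDIR without a call. Plk2, a stress-induced kinase, was higher by 2.47 ± 0.41 (adjusted p = 0.0136) and was not called without replicate A or without replicate C. Mdm2, the ligase that degrades p53, had levels of 3.23, 3.31 and 3.15 against 3.12, 3.1 and 3.14 and a difference of 0.11 ± 0.20. Cdkn2a, with levels of -2.07, -4.2 and -2.91 against -0.41, -5.2 and -5.05, varied more within the strains than between them (0.49 ± 1.32, adjusted p = 0.842). Pcna, the sliding clamp of DNA replication, was the only 1 of 24 cell cycle genes called, higher by 1.93 ± 0.23 (adjusted p = 0.00422). No circadian clock, glucocorticoid-induced, immediate early, heat shock or imprinted gene of those listed was called.

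Whether a strain difference after LDIR differed from the one after sham was tested with the interaction term over the 12 arrays at 4 weeks. Exposure went mostly with slide in BALB/c, since every irradiated array was on slide 2 and, of the sham arrays, only C. Sham arrays A and B of that strain came from slide 1, whereas SPRET/EiJ had both treatments on slide 3. The interaction in this fit therefore cannot be separated from a slide effect within BALB/c. No probe passed an adjusted p of 0.05 in limma, the lowest being 0.404, while 2003 of the probes had an unadjusted p under 0.05 (3.6%) and the per-probe test named in the study's methods gave 2 after adjustment. Without SPRET/EiJ LDIR replicate A limma gave 3, and with slide as a block over all arrays 4. Of the 6 probes singled out for the smallest p in each direction, only that of Vstm2b, an immunoglobulin domain gene, was well above background on any LDIR array, 3 of BALB/c and 2 of SPRET/EiJ. Its levels were -1.54, -0.61 and -0.87 in BALB/c LDIR, -4.48, -4.35 and -4.69 in SPRET/EiJ LDIR, -2.12, -2.5 and -2.12 in BALB/c sham and -3.39, -3.23 and -3.18 in SPRET/EiJ sham. The strain difference was 3.50 after LDIR and 1.01 after sham (interaction 2.49 ± 0.36, adjusted p = 0.539). Zfp54, a zinc finger gene, had the smallest p of all and was well above background on none of the 6 LDIR arrays.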

How the data were processed

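The authors deposited, per the file headers, scanner output of Agilent Feature Extraction for 24 one-colour arrays of 62976 spots, with intensity values already background-subtracted, and a table of log2 values on a 75th percentile scale, which the values show to be centred on each probe's median. After the same centring 99.741% of them lay within 0.01 of those used here. From 59305 non-control spots, outlier spots were dropped (984 on the 6 arrays), spots of a probe averaged on the log2 scale and the array's 75th percentile subtracted. No spot was saturated, and 11720 probes were well above background on none of the 6 arrays. The number of arrays limits the precision.

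The strain fit (limma 3.58.1, R 4.3.3) used 6 arrays without covariates, and the interaction fit 12. The thresholds were those of the study's strain comparison. The procedure was tested on simulated data. Lists of genes were described by counts and medians, each gene by its brightest probe. The genes named were, per list, up to 3 called in each direction with the higher strain well above background throughout and no overlap. By the same criteria the 5 highest and 5 lowest probes of each class were named, those well above background on all 6 arrays first. Also named were the 3 interactions of smallest p in each direction, up to 5 genes with opposite calls, genes named by the study, and marker or pathway genes. Alternatives were normexp (offset 50), quantile and median scaling, the methods' t-test, the authors' log2 values, detected probes alone, outlier spots retained, a replicate or slide block, all 24 arrays and each array left out. The members, lists and tests were chosen with earlier results of these data known. Ifi27, Ighm, Rian, Hotair and Miat were asked for and not found on the array. A few genes of the lists are counted but not reported here by name.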

Additional observations from a re-analysis of the deposited data

How the results depend on the processing

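Of the 3157 called probes, those tested kept their direction under every scaling, background, test and left-out array tried, apart from 2 probes that changed sign, uncalled, under the authors' log2 values and with outlier spots kept, 14 with slide as a block and 86 within slide 3. Counts moved more. The calls of lncRNA probes (820), coding RNA probes (2337) and adjusted calls (6182) became 439, 1466 and 3854 with the methods' t-test, 1444, 4614 and 9752 with all 24 arrays, 435, 1283 and 2125 with slide as a block, 1539, 5008 and 10875 with slide as a random block, 332, 1048 and 1818 within slide 3, and 422 to 1015, 1182 to 3382 and 2323 to 11061 with arrays left out. Normexp gave 454 lncRNA calls. Sham calls (4950) became 2736 with the t-test, 1486 with the slide block and 3212 (without BALB/c sham replicate A) to 3737 with arrays left out, and calls shared by LDIR and sham (2262) 884, 1247 and 1315 to 2806, with 4749 over 24 arrays, 5051 with slide as a random block and 951 within slide 3. Interactions past the adjusted threshold (0) became 2 with the t-test, 4 with the slide block and 0 to 3 with arrays left out (1 without BALB/c LDIR replicate B, 3 without SPRET/EiJ LDIR replicate A). Calls in the gene lists (58) became 26, 29 and 25 to 104 (30, 25 and 28 without BALB/c LDIR replicates A, B and C, 104 and 33 without SPRET/EiJ LDIR replicates A and B), 100 over 24 arrays, 106 with the random block, 26 within slide 3 and 115 by adjusted p.

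Replicate letters did not pair the arrays: same-letter deviations correlated at 0.204 (A), 0.000288 (B) and 0.0947 (C). With the replicate block the calls were 1538 coding and 4109 adjusted after LDIR, 3191 in sham and 1471 shared.

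Among the named probes, the differences that changed sign were those of Prkdc (0.08 with the slide block, -0.42 to 0.04 with arrays left out, the latter without SPRET/EiJ LDIR replicate A), Cxcl10 (0.90 within slide 3; -0.93 to 0.66 with arrays left out, 0.01 and 0.66 without replicate A of BALB/c LDIR and of SPRET/EiJ LDIR), Cdkn2a (-0.21 under normexp; -0.33 and -0.26 without SPRET/EiJ LDIR replicates B and C; 0 without BALB/c LDIR replicate A; -0.33 to 2.07 over the arrays left out), Raet1e (0.13 with the slide block) and a probe each of chr17:3198868-3394643_F (-0.27) and chr7:118248833-118267766_R (-0.78) within slide 3. The causes were not tested. Dim signal limits the 670 calls with no SPRET/EiJ array and the 133 with no BALB/c array well above background, whose size is only bounded.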
